A study of Mus musculus with 18 samples.

Results

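The genes described here were 8 acyl-CoA thioesterases (Acot1, Acot2, Acot3, Acot4, Acot8, Acot9, Acot12 and Acot13) and 2 vanins (Vnn1 and Vnn3). They were taken by gene symbol from a table of 35441 genes measured in 18 mouse livers, and all 10 had rows. Each also passed the filter of more than 100 reads summed over the livers, as 14533 genes did. The list was drawn up with differences between these same groups already known, so the counts of genes called below describe the selection and are not independent evidence.

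Liver RNA came from 6 groups of 3 mice. WT mice, Lipa-/- mice (labelled KO) and Lipa-/- mice given the gene therapy vector rAAV8.hAAT.LIPA (labelled KOT) were each sampled at 12 and at 34 weeks post-injection, which the labels give as 3 and 8 months. Lipa encodes lysosomal acid lipase, the enzyme that frees fatty acids and cholesterol from stored esters in the lysosome. According to the study's methods, Lipa lost an exon in all tissues through a CMV-Cre cross, the line was bred onto a C57/BL6N background, and the mice were males on a standard chow with littermates as controls. The vector carries the human LIPA coding sequence behind the hAAT promoter, described in the study as specific to hepatocytes. It was injected into a vein of young adult mice. The methods also state that most untreated Lipa-/- mice did not live to the later time point and were killed at humane endpoints, and the ages of the untreated mice at sampling were not given in the sources used here. All mice of 34 weeks carry the study code 22-106 and those of 12 weeks 22-132, apart from Lipa-/- mouse 5 with 23-004. Time point and study code cannot be told apart.

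Acyl-CoA thioesterases split the bond between coenzyme A and a fatty acid or another acyl group, and so return free coenzyme A and the free acid. Members of the family work in the cytosol, in mitochondria and in peroxisomes, and several of them are known targets of PPARalpha, the nuclear receptor that drives fatty acid oxidation in the fasted liver. Vanins are pantetheinases. They cleave pantetheine, a breakdown product of coenzyme A, into cysteamine and pantothenate, from which cells can make coenzyme A again.

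In the GRCm39 annotation (GENCODE vM39), Acot2 (chr12:84034428-84040647), Acot1 (chr12:84056256-84065145), Acot4 (chr12:84085081-84095375) and Acot3 (chr12:84098918-84107176) follow one another on the plus strand. With Acot5 and Acot6 they form a cluster of 6 genes over 123700 bp, without another protein-coding gene in between. Vnn3 (chr10:23727326-23746219) and Vnn1 (chr10:23770586-23781241) are also neighbours, 24366 bp apart on the plus strand. Acot8 lies at chr2:164631348-164647353 (minus strand), Acot9 at chrX:154045429-154175865 (plus strand), Acot12 at chr13:91889396-91935688 (plus strand) and Acot13 at chr13:24998351-25015547 (minus strand). Acot3 and Acot4 overlap 4732463B04Rik and Gm49366, Acot8 overlaps Snx21 and Zswim3, Acot9 overlaps Prdx4 and Gm650, Acot12 overlaps 4833422C13Rik, Gm55256, Gm55257 and Gm61483, and Acot13 overlaps Tdp2 and BC005537. The strand of the libraries was not given in the sources used here, so reads from the shared stretches may not be assigned to one gene with certainty. Gm49366 and Gm55257 lie on the same strand as the genes they overlap, so the strand would not separate their reads.

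The genes of the cluster are close copies whose products go to different compartments, and the ends of their coding sequences show where they part. Below are the last 21 coding bases of the cluster genes described here and of Acot8, read 5′ to 3′ on the coding strand from the GRCm39 genome, with the last 3 codons before the stop codon in capitals. Acot3, Acot4 and Acot8 are peroxisomal enzymes, and the last 3 codons of such enzymes encode the signal that the peroxisomal import receptor binds. Acot1 is a cytosolic and Acot2 a mitochondrial enzyme.
Acot1, chr12:84064130-84064150: ttgcatgtgtctCCTAAAATA
Acot2, chr12:84039831-84039851: aaacagttgggtAGCAAGAGT
Acot3, chr12:84105777-84105797: aagacaatcccaGCAAAACTG
Acot4, chr12:84090547-84090567: agcagagcctccTGTAGACTG
Acot8, chr2:164634815-164634835: caggtgtcagagAGTAAGCTA

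Acot1 and Acot2 were the closest pair, with 95.3% identity over 1236 aligned coding bases and a longest identical run of 273 bases. Of the stretches of 150 bases, the read length, in the canonical Acot1 transcript, 9.8% occur unchanged in Acot2, and 9.3% the other way round. Their coding sequences differ at the start, where Acot2 has 123 further bases (41 codons, in frame), where its mitochondrial targeting leader lies. These bases, which set the mitochondrial enzyme apart from its cytosolic copy, are printed with the codon that aligns with the Acot1 start codon in capitals.
Acot2, chr12:84034676-84034801, plus strand: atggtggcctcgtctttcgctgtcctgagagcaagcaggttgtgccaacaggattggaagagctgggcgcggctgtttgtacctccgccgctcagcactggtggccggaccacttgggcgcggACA

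The other pairs of cluster genes described here shared 75.3% to 85.0% of aligned coding bases. Acot1 and Acot3 were at 85.0%, with 2.5% of the Acot1 stretches of read length occurring unchanged in Acot3. Vnn1 and Vnn3 were at 67.4% and shared 0 such stretches. The counts of Acot1 and Acot2 are therefore uncertain where reads could be split between them, and their sum is given below beside the separate values. As Acot1 had more reads than Acot2 in every WT liver, the sum is no separate test of Acot2.

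The 18 livers had 17527848 to 25833134 assigned reads each. Expression is given as CPM, the reads of a gene scaled to a common library size with TMM factors, which correct for a few abundant genes that take up reads and which lay between 0.587 and 1.69. A count of 0 allows up to 3 reads, which is 0.0946 to 0.291 CPM depending on the liver, and such floors cover counting error only. A gene was called where its log2 fold change was over 1 or under -1 and the quasi-likelihood test of edgeR, adjusted over all 14533 genes, gave a p under 0.05. Lipa had 202 to 323 CPM in the WT livers and 16.7 to 37.0 CPM in the 12 Lipa-/- livers, and hLIPA had 523 to 2746 CPM in treated livers and at most 0.906 CPM in the others. Markers of cell types moved with the groups. Hepatocyte markers (6 genes) summed to 64550.2 to 80303 CPM in WT and 37791 to 58019 CPM in Lipa-/- livers at 12 weeks, and to 58401 to 77299 and 21350.2 to 48132.5 CPM at 34 weeks. In treated livers they summed to 61940.7 to 111025 CPM at 12 weeks and 52120.7 to 76375.1 CPM at 34 weeks. Macrophage markers (7 genes) summed to 91.8 to 248 CPM in WT, 4078 to 8964 CPM in Lipa-/- and 868 to 2730 CPM in treated livers at 12 weeks, and to 166 to 380, 4278 to 5751 and 287 to 662 CPM at 34 weeks. Between Lipa-/- and WT livers, 3 of 6 hepatocyte markers were called lower at 12 weeks and 4 of 6 at 34 weeks, and 6 of 7 macrophage markers were called higher at each time. The other macrophage marker, the Kupffer cell lectin Clec4f, was at -1.51 at 12 weeks (SE 1.02, edgeR adjusted p = 0.263) and was called lower at 34 weeks (-2.73, SE 1.07, edgeR adjusted p = 0.0445). Called higher and lower were 4 and 0 of 4 neutrophil, 2 and 0 of 3 T cell, 3 and 1 of 4 stellate cell, 2 and 0 of 4 cholangiocyte and 1 and 1 of 4 sinusoidal endothelial cell markers at 12 weeks. At 34 weeks they were 3 and 0, 1 and 0, 3 and 1, 4 and 0, and 1 and 1. Between treated and untreated Lipa-/- livers, 3 of 6 hepatocyte markers were called higher at each time, 1 was called lower at 12 weeks, and 5 and 6 of 7 macrophage markers were called lower, with Clec4f called higher at 12 weeks. Between treated and WT livers at 12 weeks, 5 of 7 macrophage and 3 of 4 stellate cell markers were called higher and 1 of 6 hepatocyte markers lower. Also called higher were 2 of 3 T cell and 1 of 4 neutrophil markers. Of 4 sinusoidal endothelial cell markers, 1 was called higher and 1 lower, and 0 of 4 cholangiocyte markers were called. Among all tested genes, 13.6% were called higher and 12% lower at 12 weeks. At 34 weeks, 2 of 7 macrophage markers were called higher and 0 lower. Of all tested genes, 0.131% were called higher and 0.0895% lower in that comparison. No marker of the other cell types was called in it. Neutrophil markers (4 genes) summed to 0.973 to 5.31 CPM in WT and 1.58 to 710 CPM (median 2.64) in treated livers at 34 weeks. The part of these shifts in the results below was not tested. In whole liver, fewer cells of a type and less RNA per cell cannot be told apart.

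Levels of different genes were compared in TPM, which are scaled for transcript length. In WT livers at 12 weeks, Acot13, a mitochondria-associated thioesterase, had the highest level of the 10 genes, with 104 ± 11.3 TPM (SD, n = 3). Vnn3 followed with 34.3 ± 3.43 TPM, Acot12 with 27.3 ± 3.94 TPM, Acot8 with 20.6 ± 1.99 TPM and Acot1 with 17.3 ± 5.64 TPM (SD, n = 3 each). The ranges of Acot8 and Acot1 overlapped, and those of the other neighbours in this order did not. Vnn1 (5.13 ± 4.34 TPM) and Acot4 (4.07 ± 1.29 TPM) came next with overlapping ranges, and Acot2 (1.79 ± 0.777 TPM), Acot9 (1.5 ± 0.289 TPM) and Acot3 (0.728 ± 0.471 TPM) were the lowest, each overlapping its neighbour (SD, n = 3 each). At 34 weeks, Acot13 was again highest in WT livers with 134 ± 29.6 TPM, Vnn1 followed Vnn3 with 44.9 ± 17.5 TPM and overlapped it and Acot12, and Acot9 was lowest with 2.33 ± 0.533 TPM (SD, n = 3 each).

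**Figure D1:**
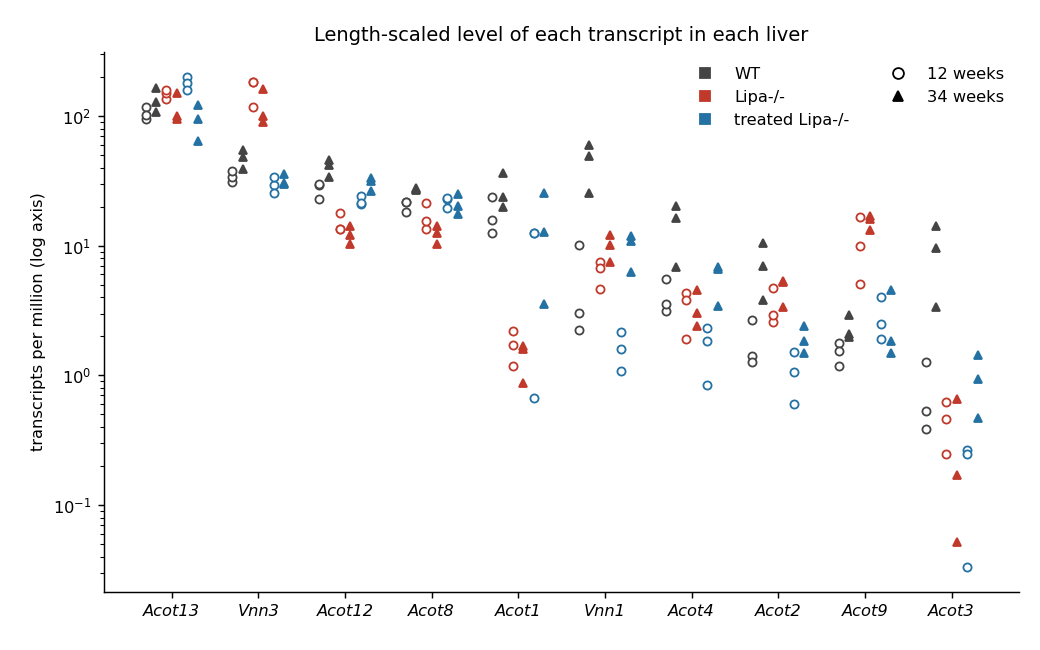
TPM (log axis) of each gene in each of the 18 livers, ordered by the mean in WT livers at 12 weeks, with colours for the kind of mouse, open circles for 12 weeks and filled triangles for 34 weeks. Acot13 lay between 64.4 and 202 TPM in every liver, while Acot3 ranged from 0.0332 to 14.2 TPM.

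The first question was how loss of Lipa changed these genes. In Lipa-/- livers at 12 weeks, Acot1 and Acot12 were lower and Acot9 and Vnn3 higher than in WT livers. At 34 weeks, 7 genes were lower (Acot1, Acot2, Acot3, Acot4, Acot8, Acot12 and Vnn1) and Acot9 was higher. Of all tested genes, 20.2% were called higher and 9.06% lower at 12 weeks, against 2 and 2 of the 10 genes. At 34 weeks, 20.5% were called higher and 15.7% lower, against 1 and 7 of the 10 genes. The median log2 fold change of the 10 genes was -0.39 at 12 weeks and -2.03 at 34 weeks, and that of all tested genes 0.02 and -0.03. As the genes were selected on such differences, nothing is read from these shares.

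**Figure D2:**
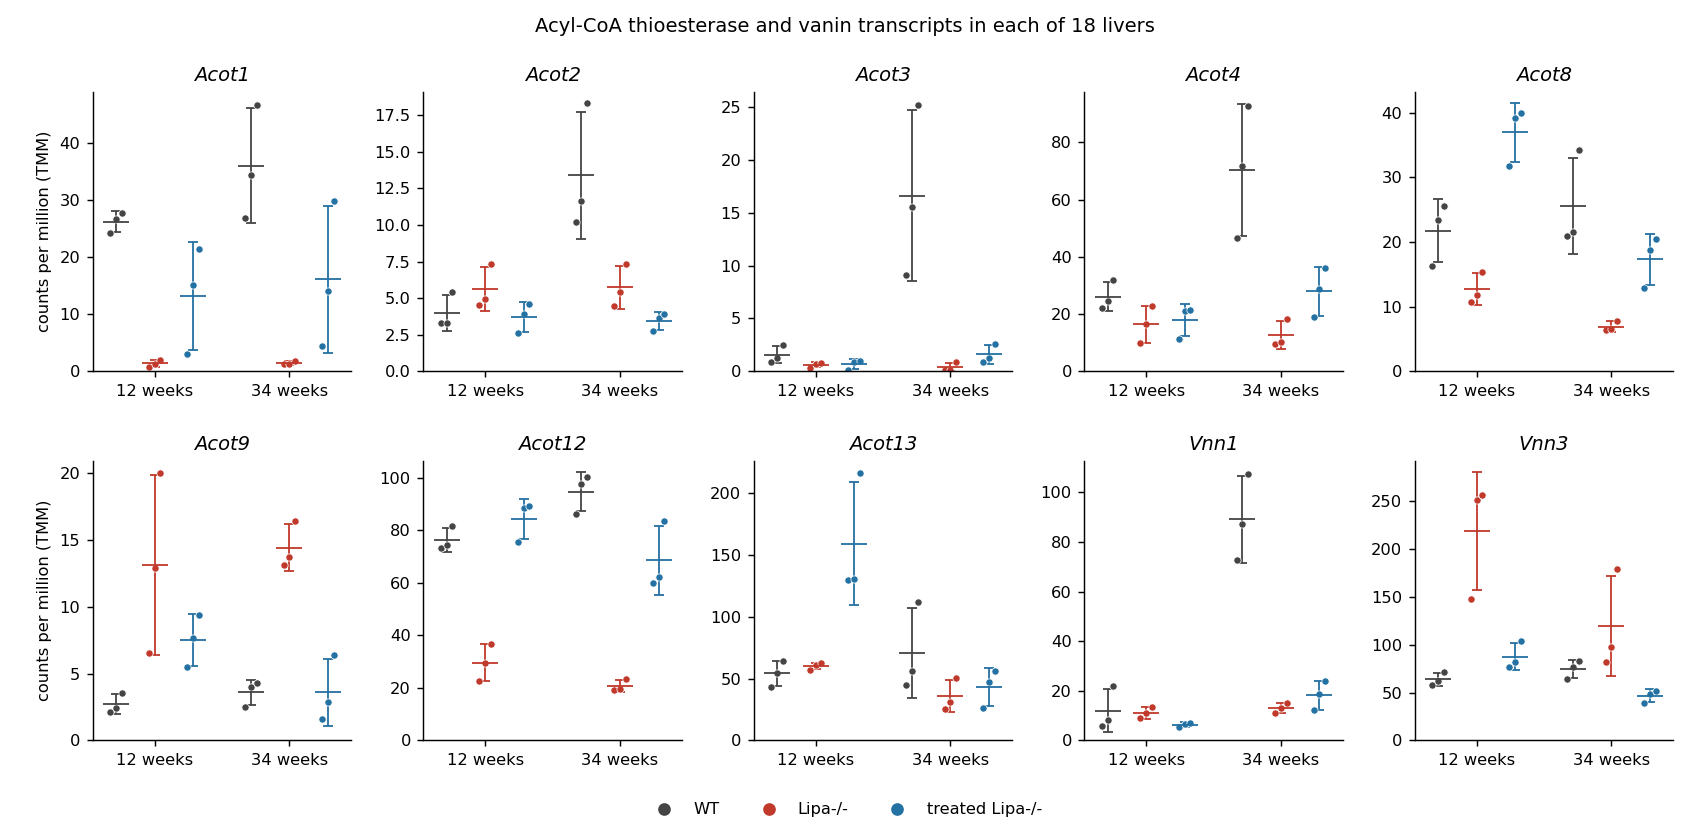
CPM (TMM scaled) of the 10 genes in every liver, in panels with linear axes that start at 0. Points are mice, ordered by value within a group, and bars are means ± SD of 3 mice. Lipa-/- livers lay below WT livers for Acot1, Acot3, Acot8 and Acot12 and above them for Acot9 at both times. WT livers of 34 weeks stood above all other livers for Acot2, Acot3, Acot4 and Vnn1. The shares of all tested genes with such patterns were not counted.

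Acot1, the cytosolic thioesterase of long-chain acyl-CoAs, had 24.2, 26.6 and 27.7 CPM in WT livers at 12 weeks, 0.781, 1.282 and 2.02 CPM in Lipa-/- livers and 3.01, 15.0 and 21.5 CPM in treated livers. At 34 weeks the values were 34.4, 26.7 and 46.6 CPM in WT, 1.80, 1.31 and 1.21 CPM in Lipa-/- and 14.1, 29.7 and 4.36 CPM in treated livers. Every Lipa-/- liver lay far below every WT liver, and the treated livers spread over most of the range between them. Acot1 was 19.3-fold lower in Lipa-/- than in WT livers at 12 weeks (log2 fold change -4.27, SE 0.671, edgeR adjusted p = 9.78e-05) and 24.7-fold lower at 34 weeks (-4.63, SE 0.676, edgeR adjusted p = 3.41e-05). When the reads of Acot1 and Acot2 were summed, the log2 fold change was -2.12 (SE 0.498, edgeR adjusted p = 0.00290) at 12 weeks and -2.78 (SE 0.508, edgeR adjusted p = 0.000269) at 34 weeks. The mean Acot1 transcript length that the authors' quantification used ranged from 725 to 2044 bases between livers, which bears on the TPM values of this gene.

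Acot2, the mitochondrial copy of Acot1, had another pattern. At 12 weeks it had 3.27, 3.30 and 5.39 CPM in WT, 4.51, 4.97 and 7.31 CPM in Lipa-/- and 2.62, 4.62 and 3.91 CPM in treated livers. These 3 groups overlapped. At 34 weeks it had 10.2, 11.6 and 18.3 CPM in WT, 5.39, 7.30 and 4.48 CPM in Lipa-/- and 3.94, 3.66 and 2.72 CPM in treated livers, so that the WT livers alone were above 10 CPM. In Lipa-/- against WT livers, the log2 fold change was 0.49 at 12 weeks (SE 0.314, edgeR adjusted p = 0.235) and -1.23 at 34 weeks (SE 0.310, edgeR adjusted p = 0.00368). The call of 34 weeks was lost without WT mouse 3 (-0.93), with total counts instead of TMM factors (-0.62, edgeR adjusted p = 0.167) and on TPM values (-0.52, limma adjusted p = 0.314).

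Acot3 and Acot4 encode peroxisomal thioesterases of fatty acyl-CoAs and of dicarboxylyl-CoAs such as succinyl-CoA. Acot3 was a low transcript at 12 weeks, with 1.29, 0.909 and 2.46 CPM in WT, 0.639, 0.350 and 0.808 CPM in Lipa-/- and 0.0972, 0.978 and 0.92 CPM in treated livers. At 34 weeks WT livers reached 9.08, 15.6 and 25.2 CPM, while Lipa-/- livers had 0.126, 0.116 and 0.882 CPM and treated livers 1.30, 2.57 and 0.895 CPM. The WT livers of 34 weeks thus lay above all 15 other livers. The log2 fold change of Acot3 in Lipa-/- against WT livers was -1.36 at 12 weeks (SE 0.698, edgeR adjusted p = 0.135) and -5.47 at 34 weeks (SE 0.761, edgeR adjusted p = 2.14e-05). The latter rests on 4, 3 and 24 reads in the Lipa-/- livers and was -7.03 without Lipa-/- mouse 6, which had the 24 reads.

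Acot4 had 22.1, 24.5 and 31.8 CPM in WT, 22.9, 9.94 and 16.5 CPM in Lipa-/- and 11.3, 21.3 and 21 CPM in treated livers at 12 weeks. At 34 weeks the values were 46.5, 71.9 and 92.7 CPM in WT, 9.40, 10.1 and 18.4 CPM in Lipa-/- and 28.9, 35.9 and 18.9 CPM in treated livers. The order was WT, treated, Lipa-/- at 34 weeks without any overlap, whereas WT and Lipa-/- livers overlapped at 12 weeks. In Lipa-/- against WT livers it changed by -0.67 (log2) at 12 weeks (SE 0.362, edgeR adjusted p = 0.159) and -2.48 at 34 weeks (SE 0.379, edgeR adjusted p = 5.26e-05).

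Acot8, a peroxisomal thioesterase of broad specificity that also cleaves bile acid CoA esters, had 23.4, 25.5 and 16.2 CPM in WT, 10.7, 11.8 and 15.4 CPM in Lipa-/- and 39.2, 31.7 and 40.0 CPM in treated livers at 12 weeks. At 34 weeks it had 34.2, 21 and 21.6 CPM in WT, 6.46, 7.84 and 6.43 CPM in Lipa-/- and 12.8, 18.7 and 20.4 CPM in treated livers. Lipa-/- livers were lowest at both times, and treated livers were above WT livers at 12 weeks and below them at 34 weeks. In Lipa-/- against WT livers the log2 fold change was -0.78 at 12 weeks (SE 0.245, edgeR adjusted p = 0.0183), which does not reach the threshold on the fold, and -1.89 at 34 weeks (SE 0.253, edgeR adjusted p = 1.48e-05).

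Acot9, a mitochondrial thioesterase, was the one thioesterase of the 8 that was higher in Lipa-/- livers at both times. It had 2.14, 3.54 and 2.41 CPM in WT, 6.57, 12.9 and 20.0 CPM in Lipa-/- and 7.68, 9.40 and 5.52 CPM in treated livers at 12 weeks. At 34 weeks it had 4.31, 2.52 and 3.97 CPM in WT, 13.1, 13.7 and 16.4 CPM in Lipa-/- and 1.59, 2.84 and 6.38 CPM in treated livers. Lipa-/- livers did not overlap WT livers at either time. The log2 fold change was 2.28 at 12 weeks (SE 0.457, edgeR adjusted p = 0.000848) and 2.01 at 34 weeks (SE 0.448, edgeR adjusted p = 0.00149). The summed macrophage markers, which were higher in the same livers, are given above, and their part in this difference was not tested.

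Acot12, the cytosolic acetyl-CoA hydrolase, had 74.4, 73.3 and 81.7 CPM in WT, 22.7, 36.6 and 29.6 CPM in Lipa-/- and 89.2, 75.5 and 88.5 CPM in treated livers at 12 weeks. At 34 weeks it had 100.5, 86.3 and 97.6 CPM in WT, 19.4, 19.8 and 23.4 CPM in Lipa-/- and 62.2, 83.5 and 59.9 CPM in treated livers. Its groups were tight, with Lipa-/- livers well below the rest. Against WT livers it differed by -1.37 on the log2 scale at 12 weeks (SE 0.195, edgeR adjusted p = 3.79e-05) and -2.18 at 34 weeks (SE 0.2, edgeR adjusted p = 3.87e-07). With total counts instead of TMM factors the value of 12 weeks was -0.90 and fell short of the threshold on the fold.

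Acot13 had 54.9, 64.1 and 43.4 CPM in WT, 57.3, 61.0 and 62.5 CPM in Lipa-/- and 216, 131 and 130 CPM in treated livers at 12 weeks. At 34 weeks it had 112, 44.7 and 55.9 CPM in WT, 25.8, 31.3 and 50.6 CPM in Lipa-/- and 26.0, 47.4 and 56.4 CPM in treated livers. The treated livers of 12 weeks stood alone at the top, and WT mouse 1 of 34 weeks was apart from its group. The log2 fold change in Lipa-/- against WT livers was 0.15 at 12 weeks (SE 0.354, edgeR adjusted p = 0.762) and -0.98 at 34 weeks (SE 0.357, edgeR adjusted p = 0.0318). The latter was called without WT mouse 2 (-1.23), WT mouse 3 (-1.13) or Lipa-/- mouse 6 (-1.31).

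The vanins differed from each other. Vnn1, a pantetheinase anchored to the cell surface, had 5.84, 8.18 and 21.9 CPM in WT, 8.91, 13.6 and 10.9 CPM in Lipa-/- and 5.25, 7.23 and 6.59 CPM in treated livers at 12 weeks. At 34 weeks WT livers reached 72.8, 87.1 and 108 CPM, while Lipa-/- livers had 13.1, 15.2 and 11.1 CPM and treated livers 18.7, 23.9 and 12.3 CPM. The WT livers of 34 weeks were again above all 15 other livers. In Lipa-/- against WT livers, the log2 fold change was -0.10 at 12 weeks (SE 0.373, edgeR adjusted p = 0.850), positive with total counts (0.33), on TPM values (0.57), without WT mouse 3 (0.67) and without Lipa-/- mouse 5 (0.03), and -2.76 at 34 weeks (SE 0.391, edgeR adjusted p = 2.49e-05).

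Vnn3, the second pantetheinase, had 58.1, 71.3 and 61.5 CPM in WT, 256, 251 and 148 CPM in Lipa-/- and 103, 81.7 and 76.7 CPM in treated livers at 12 weeks. At 34 weeks it had 83.1, 64.3 and 76.4 CPM in WT, 82.0, 179 and 97.8 CPM in Lipa-/- and 38.9, 48.7 and 52.1 CPM in treated livers. Lipa-/- livers were clearly above WT livers at 12 weeks and overlapped them at 34 weeks. The log2 fold change was 1.78 at 12 weeks (SE 0.281, edgeR adjusted p = 0.000101) and 0.68 at 34 weeks (SE 0.274, edgeR adjusted p = 0.0506). The value of 34 weeks passed both thresholds with total counts (1.31, edgeR adjusted p = 0.000463) and on TPM values (1.284, limma adjusted p = 0.000283).

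**Figure D3:**
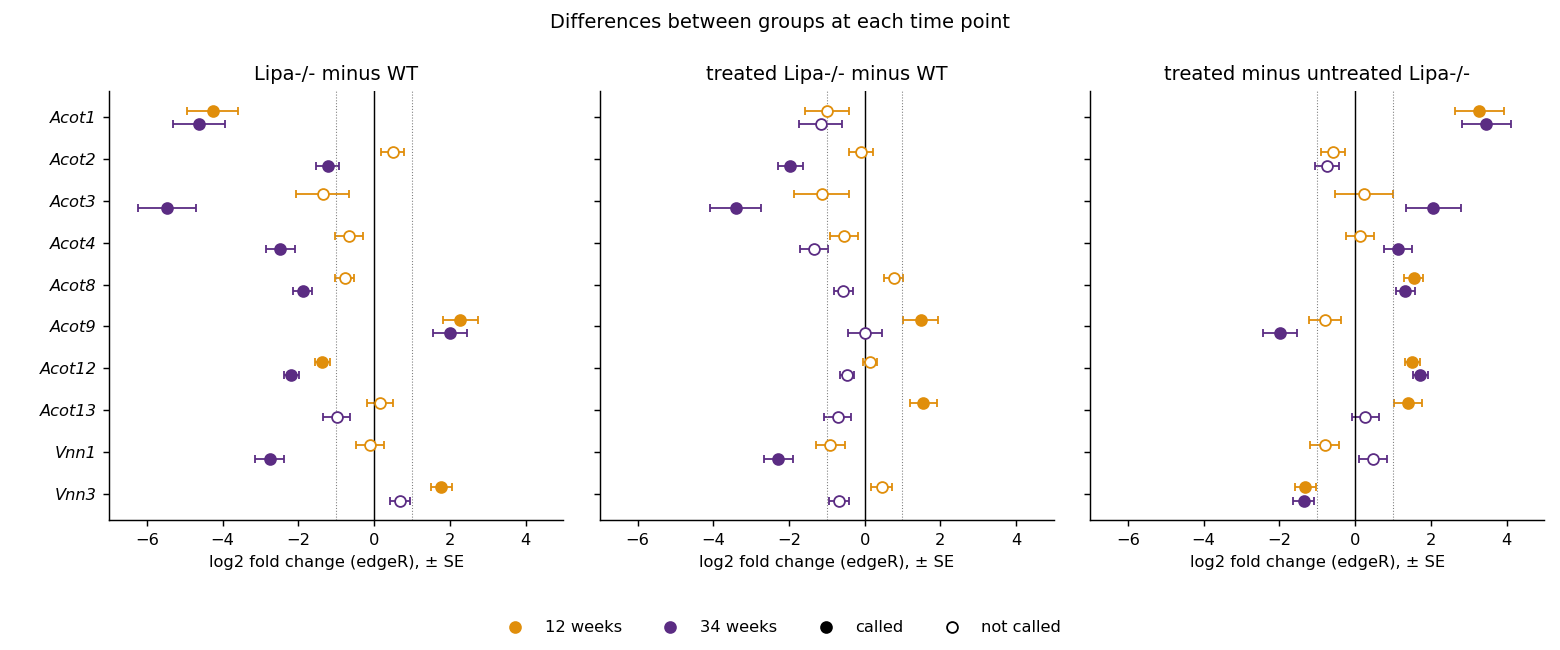
Log2 fold changes (points) with standard errors (bars) of the 10 genes in 3 comparisons at 12 weeks (orange) and 34 weeks (purple), with filled points for genes called and dotted lines at log2 fold changes of -1 and 1. Acot1 stood at -4.27 and -4.63 in Lipa-/- against WT livers and at 3.28 and 3.46 in treated against untreated Lipa-/- livers.

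The second question was which of these genes the vector moved. Against untreated Lipa-/- livers, treated livers had higher Acot1, Acot8, Acot12 and Acot13 and lower Vnn3 at 12 weeks, with 4 genes called higher and 1 lower. Of all tested genes, 16.2% were called higher and 25.3% lower. At 34 weeks, Acot1, Acot3, Acot4, Acot8 and Acot12 were higher and Acot9 and Vnn3 lower, with 5 and 2 genes called against 12.8% and 18.6% of all tested genes. The median log2 fold change of the 10 genes was 0.18 and 0.81 at the 2 times, and that of all tested genes -0.19 and 0.03.

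Acot1 rose by 3.28 on the log2 scale at 12 weeks (SE 0.653, edgeR adjusted p = 0.000628) and by 3.46 at 34 weeks (SE 0.649, edgeR adjusted p = 0.000432, or 2.67 without treated mouse 11). On TPM values the call of 12 weeks was lost (1.5, limma adjusted p = 0.117). The sum of Acot1 and Acot2 rose by 1.29 (SE 0.490, edgeR adjusted p = 0.0356) and by 1.44 (SE 0.489, edgeR adjusted p = 0.0258). Acot12 rose by 1.51 (SE 0.196, edgeR adjusted p = 1.84e-05) and by 1.72 (SE 0.197, edgeR adjusted p = 5.06e-06). Acot8 rose by 1.54 (SE 0.249, edgeR adjusted p = 0.000120) and by 1.33 (SE 0.250, edgeR adjusted p = 0.000446), the latter 0.78 with total counts and 0.76 on TPM values, below the threshold on the fold. Acot1, Acot8 and Acot12 were thus called higher at both times, as was Vnn3 in the other direction, which fell by 1.33 (SE 0.278, edgeR adjusted p = 0.000933) and by 1.36 (SE 0.278, edgeR adjusted p = 0.000875, or -0.95 and not called without Lipa-/- mouse 5).

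Acot13 rose at 12 weeks by 1.4 (SE 0.36, edgeR adjusted p = 0.00399), and its log2 fold change at 34 weeks was 0.27 (SE 0.354, edgeR adjusted p = 0.576). The rises of 12 weeks depended on the scaling. With total counts they were 0.65 for Acot8, 0.63 for Acot12 and 0.50 for Acot13, below the threshold on the fold, and on TPM values 0.40, 0.58 and 0.27. The same settings called other genes lower at 12 weeks. With total counts 1 gene was called higher and 4 lower, with Acot2 at -1.43, Acot9 at -1.65 and Vnn1 at -1.66 beside Vnn3. On TPM values 0 were called higher and 4 lower, with Acot2 at -1.63, Acot9 at -1.78 and Vnn1 at -1.93. The shares of all tested genes called with these settings were not counted, so nothing is read from these counts. Acot9 was also called lower without Lipa-/- mouse 5 of 12 weeks (-1.12, edgeR adjusted p = 0.0428). Scaling by total counts lowered the median over all tested genes in this comparison, with a shift of -0.87 (log2). The TMM factors of the treated livers of 12 weeks were 0.587 to 0.759, the lowest 3 of the 18 livers.

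At 34 weeks, Acot9 fell by 1.99 in treated against untreated livers (SE 0.447, edgeR adjusted p = 0.00184, or -2.74 without treated mouse 12). Acot3 rose by 2.06 (SE 0.725, edgeR adjusted p = 0.0309) and Acot4 by 1.14 (SE 0.365, edgeR adjusted p = 0.0190). Both calls of these neighbouring genes were lost without Lipa-/- mouse 4 (1.63 and 0.97), without Lipa-/- mouse 5 (1.66 and 1.00) and without treated mouse 11 (1.55 and 0.92), and with total counts (1.55 and 0.61). Acot3 was at 3.63 without Lipa-/- mouse 6. Vnn1, which was lower in Lipa-/- than in WT livers at 34 weeks, had a log2 fold change of 0.47 in treated against untreated livers (SE 0.370, edgeR adjusted p = 0.330), and -0.09 with total counts. Acot2 was at -0.73 (SE 0.314, edgeR adjusted p = 0.0720), and at -1.278 with total counts (edgeR adjusted p = 0.0106).

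The third question was what still set treated livers apart from WT livers. These comparisons use the same WT and treated mice as those above. At 12 weeks, Acot9 and Acot13 were called higher and 0 of the 10 genes lower, against 13.6% and 12% of all tested genes. At an unadjusted p under 0.05, 4 of the 10 genes differed, and DESeq2 called 2. The shares of all tested genes by these 2 measures were not counted, so nothing is read from these numbers. Acot13 rose by 1.55 (SE 0.361, edgeR adjusted p = 0.00668) and was below the threshold on the fold on TPM values (0.79, limma adjusted p = 0.0205). Acot9 rose by 1.48 (SE 0.455, edgeR adjusted p = 0.0202). Its call was lost with total counts (1.11) or TPM values (0.81), and without WT mouse 1 (1.34), WT mouse 3 (1.4), treated mouse 10 (1.39) or treated mouse 11 (1.283). Acot1 was at -0.98 with treated mice from 3.01 to 21.5 CPM (SE 0.579, edgeR adjusted p = 0.187), and Acot12 at 0.14 (SE 0.191, edgeR adjusted p = 0.574), or -0.28 with total counts. Vnn1, at -0.91 (SE 0.385, edgeR adjusted p = 0.0721), was called lower with total counts (-1.32), on TPM values (-1.36) and without WT mouse 1 (-1.24) or 2 (-1.12). On TPM values Acot4 was called lower as well (-1.30, limma adjusted p = 0.0366), and 0 of the 10 genes were called higher. The shares of all tested genes called on TPM values were not counted.

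At 34 weeks, few genes of the whole liver separated treated from WT livers, with 0.131% of all tested genes called higher and 0.0895% lower. Of the 10 genes, 0 were called higher and 3 lower, namely Acot2, Acot3 and Vnn1. At an unadjusted p under 0.05, 7 of the 10 genes differed. The share of all tested genes at that unadjusted p was not counted, so nothing is read from this number. Vnn1 was 4.89-fold lower (log2 fold change -2.29, SE 0.384, edgeR adjusted p = 0.0156), Acot2 3.89-fold lower (-1.96, SE 0.32, edgeR adjusted p = 0.0126) and Acot3 10.6-fold lower (-3.40, SE 0.672, edgeR adjusted p = 0.0481). For each of these genes, the 3 treated livers lay below the 3 WT livers, and the 3 WT livers of 34 weeks lay above the 3 WT livers of 12 weeks as well. Treated and WT livers of 34 weeks also did not overlap for Acot4, Acot8, Acot12 and Vnn3, which were not called. The share of all tested genes without overlap was not counted, so nothing is read from the lack of overlap. The calls were fragile. Without WT mouse 3, treated mouse 9 or treated mouse 12, 0 of the 10 genes were called, as with a fit of these 6 mice alone (0) or TPM values (0). The log2 fold changes without WT mouse 3 were -2.13 for Vnn1, -1.67 for Acot2 and -2.97 for Acot3. Without treated mouse 9 they were -2.30, -2.07 and -3.28, and without treated mouse 12 -2.07, -1.81 and -3.11. The call of Acot3 was also lost without WT mouse 2 (-3.45) or treated mouse 11 (-3.92). When the reads of Acot1 and Acot2 were summed, the log2 fold change was -1.34 (SE 0.482, edgeR adjusted p = 0.632), and the sum was not called. Acot4 was at -1.34 (SE 0.364, edgeR adjusted p = 0.311), and Acot9, higher in untreated livers, at 0.01 (SE 0.444, edgeR adjusted p = 1), with values of -0.71 to 0.37 when a mouse was left out.

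The values by mouse showed WT livers of 34 weeks standing apart from WT livers of 12 weeks in some of these genes, and this comparison was added after the values were seen. In WT livers, Vnn1, Acot3 and Acot2 were called higher at 34 than at 12 weeks, and 0 of the 10 genes lower, against 0.22% of all tested genes called higher and 0.103% lower. Vnn1 rose by 2.90 on the log2 scale (SE 0.394, edgeR adjusted p = 0.00377), Acot3 by 3.42 (SE 0.675, edgeR adjusted p = 0.0398) and Acot2 by 1.75 (SE 0.318, edgeR adjusted p = 0.0244). Acot4 was at 1.43 (SE 0.365, edgeR adjusted p = 0.123), and the other 6 genes between 0.23 and 0.46. The summed reads of Acot1 and Acot2 were at 0.71 (SE 0.475, edgeR adjusted p = 0.883) and were not called. Vnn1 kept its call with each of the 6 WT mice left out, at 3.67 without mouse 3 of 12 weeks, which had the 21.9 CPM. The calls of Acot2 and Acot3 were lost without mouse 1 (1.62 and 3.31) or mouse 2 (1.63 and 3.15) of 12 weeks, or mouse 2 (1.84 and 3.47) or mouse 3 (1.45 and 2.99) of 34 weeks, and that of Acot3 also without mouse 3 of 12 weeks (3.92). All 3 calls were lost when the 6 WT mice were fitted alone, and time and study code cannot be told apart here.

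**Figure D4:**
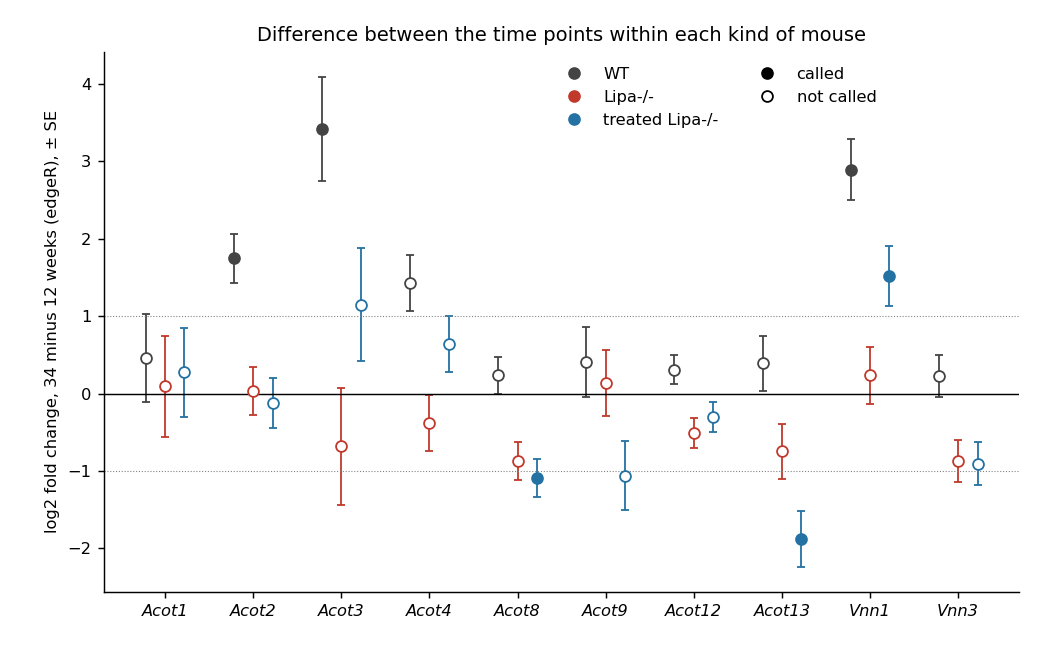
Log2 fold change from 12 to 34 weeks within WT, Lipa-/- and treated Lipa-/- mice (points) with standard errors (bars), with filled points for genes called and dotted lines at -1 and 1. In WT mice, Vnn1 stood at 2.90, Acot3 at 3.42 and Acot2 at 1.75, and in Lipa-/- mice they stood at 0.24, -0.68 and 0.03.

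In Lipa-/- livers, 0 of the 10 genes were called between the time points in either direction (3 at an unadjusted p under 0.05, and 0 with DESeq2), against 0.0344% of all tested genes called higher and 0.461% lower. These shares are of edgeR calls, and those at the unadjusted p or with DESeq2 were not counted. Vnn1 was at 0.24 (SE 0.371, edgeR adjusted p = 0.787), Acot2 at 0.03 (SE 0.308, edgeR adjusted p = 0.971), Acot3 at -0.68 (SE 0.754, edgeR adjusted p = 0.681) and Acot4 at -0.38 (SE 0.362, edgeR adjusted p = 0.636). In treated livers, 1 gene was called higher (Vnn1) and 2 lower (Acot8 and Acot13), against 17.5% and 14.5% of all tested genes. Vnn1 rose by 1.52 (SE 0.387, edgeR adjusted p = 0.00551). Acot13 fell by 1.88 (SE 0.365, edgeR adjusted p = 0.00171) and by 0.98 on TPM values, and Acot8 fell by 1.09 (SE 0.246, edgeR adjusted p = 0.00281), by 0.44 with total counts and by 0.07 on TPM values. Acot8 fell by 1.00 without treated mouse 12 of 12 weeks and by 0.92 without treated mouse 9 of 34 weeks, and then missed the threshold on the fold. On TPM values 3 genes were called higher and 0 lower, with Acot3 at 1.91 (limma adjusted p = 0.0190) and Acot4 at 1.74 (limma adjusted p = 0.00470) beside Vnn1. The shares of all tested genes called on TPM values were not counted here either. Acot4 was also called higher with total counts (1.24, edgeR adjusted p = 0.0171).

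Whether the difference from WT livers itself differed between the times was tested as an interaction. For Lipa-/- livers, 0 of the 10 genes were called (0.0206% of all tested genes were called higher and 0.0413% lower), with 8 of 10 at an unadjusted p under 0.05 and 5 called lower by DESeq2, namely Acot2, Acot3, Acot4, Acot12 and Vnn1. The shares of all tested genes at that unadjusted p, or called by DESeq2, were not counted. Nothing is therefore read from how many of the 10 genes met either. The estimates were negative for all 10 genes in the edgeR fit, as they were for treated livers. For Lipa-/- livers the median of the 10 genes was -1.12, and that of all tested genes -0.14. Between WT livers of 34 and 12 weeks all 10 estimates were positive, and both interactions subtract that difference. The share of all tested genes with negative estimates was not counted, so nothing is read from these signs. Vnn1 was at -2.66 (SE 0.531, edgeR adjusted p = 0.0723), and was called without WT mouse 3 of 12 weeks (-3.43, edgeR adjusted p = 0.00137). Acot3 was at -4.10 (SE 1.00, edgeR adjusted p = 0.145), and was called without Lipa-/- mouse 6 of 34 weeks (-5.67, edgeR adjusted p = 0.0215). For treated livers, 0 genes were called higher and 4 lower (Acot2, Acot8, Acot13 and Vnn3), against 8.58% and 9.83% of all tested genes. Without treated mouse 9 of 34 weeks, or WT mouse 1 or 3 of 12 weeks, 0 of the 10 genes were called.

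Over the 18 livers, which fall into the 6 groups and share their depth and scaling, Acot3 and Acot4 had the most similar pattern of any pair of the 10 genes, with a Pearson correlation of log2 CPM of 0.972 and of 0.882 after removal of the group means. Among the 12598 genes that averaged 1 CPM or more, Acot4 was the closest to Acot3 and Acot3 the closest to Acot4. Gm49366 overlaps both genes on their own strand, and its part in this similarity was not tested. Acot2 and Vnn1 correlated with 0.834, or 0.721 within groups. Acot1 and Acot2, the closest in sequence, differed in their order of groups at 12 weeks. The genes closest to the others were Aqp4 and Me1 for Acot1 (0.958 and 0.950), Slc22a29 and Nt5e for Acot2 (0.868 and 0.848), Pex3 and Urod for Acot8 (0.985 and 0.978), and Akr1b7 and Ctps2 for Acot9 (0.976 and 0.974). They were Mmd and Sucla2 for Acot12 (0.991 and 0.988), Mrpl57 and Nudt14 for Acot13 (0.978 and 0.977), Pigk and Gpc1 for Vnn1 (0.913 and 0.901), and Ly96 and P2rx4 for Vnn3 (0.881 and 0.869). Pex3 is a factor of peroxisome assembly, and Acot8 is a peroxisomal enzyme. Ly96 is a cofactor of the lipopolysaccharide receptor and is found on macrophages. These correlations were computed over livers that also differ in cell composition, and are given without a test.

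Related genes were counted in lists drawn up with earlier results of these data known. Of 13 other thioesterases and relatives, 10 were tested (Acot5, Acot10 and Them5 had too few reads). In Lipa-/- against WT livers, 2 were called higher and 3 lower at 12 weeks, and 0 and 3 at 34 weeks, against 20.2% and 9.06% of all tested genes at 12 weeks and 20.5% and 15.7% at 34 weeks. Baat, which couples bile acids to amino acids and shares the thioesterase fold, fell by 1.56 (SE 0.351, edgeR adjusted p = 0.00206) and by 2.75 (SE 0.367, edgeR adjusted p = 1.41e-05). Acnat1 and Them4 were also called lower at both times, at -1.48 and -2.03 and at -1.08 and -1.79. Acot6 of the cluster was called higher at 12 weeks (1.47, SE 0.5, edgeR adjusted p = 0.0275), with 0.239 to 0.643 CPM in WT and 1.24 to 1.41 CPM in Lipa-/- livers, as was Ppt1, a lysosomal palmitoyl-protein thioesterase (1.16, SE 0.218, edgeR adjusted p = 0.000467).

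Among 14 genes of coenzyme A synthesis, transport and degradation, 1 was called higher and 5 lower in Lipa-/- livers at 12 weeks, and 0 and 7 at 34 weeks (20.2% and 9.06%, and 20.5% and 15.7% of all tested genes). Nudt7, a peroxisomal hydrolase that degrades coenzyme A, had 706 to 1171 CPM in WT and 30.6 to 45.6 CPM in Lipa-/- livers at 12 weeks, and 270 to 866 and 10.5 to 16.6 CPM at 34 weeks. It fell by 4.67 (SE 0.504, edgeR adjusted p = 2.36e-06) and by 5.29 (SE 0.520, edgeR adjusted p = 7.00e-07). The gene called higher was Slc5a6, a transporter of pantothenate and biotin (1.09, SE 0.275, edgeR adjusted p = 0.00471). Of 17 tested acyl-CoA synthetases, which make the substrates of the thioesterases, 2 were called higher and 11 lower at each time, beside the same shares of all tested genes. Acss3 fell by 3.12 at 12 weeks and fell by 4.94 at 34 weeks. Acss1, a mitochondrial acetyl-CoA synthetase, was called higher, with at most 0.335 CPM in WT livers, near the floor of 3 reads, and 3.03 to 4.49 and 3.49 to 6.65 CPM in Lipa-/- livers. Slc27a1, the other one called higher, lay well above the floor. It had 3.66 to 3.78 CPM in WT and 28.5 to 39.4 CPM in Lipa-/- livers at 12 weeks, and 3.66 to 7.25 and 38.1 to 53.7 CPM at 34 weeks.

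Of PPARalpha and its classical targets (25 genes), 1 was called higher and 14 lower in Lipa-/- livers at 12 weeks, and 0 and 18 at 34 weeks, with 20.2% and 9.06% of all tested genes called at 12 weeks and 20.5% and 15.7% at 34 weeks. Ppara itself, named for its role after its values were seen, fell by 1.42 at 12 weeks (SE 0.346, edgeR adjusted p = 0.00371) and by 1.98 at 34 weeks (SE 0.350, edgeR adjusted p = 0.000202). In treated against WT livers, 2 of the 25 were called lower at 12 weeks and 0 at 34 weeks, with 12% and 0.0895% of all tested genes called lower. With so few genes called at 34 weeks, 0 of 25 does not show levels equal to WT. The median log2 fold change of the list was -0.15 at 12 weeks and -0.63 at 34 weeks, and that of all tested genes 0.06 and 0.0025. Between WT livers of 34 and 12 weeks, 1 of the 25 was called, against 0.22% of all tested genes called higher and 0.103% lower. It was Cd36, a fatty acid transporter, which rose by 2.22 (SE 0.405, edgeR adjusted p = 0.0249). Cd36 was also the gene of the list called higher in Lipa-/- livers at 12 weeks (1.92, SE 0.401, edgeR adjusted p = 0.00116), where 14 were called lower. Cyp4a14, a fatty acid omega-hydroxylase, varied most. It had 3.38 to 62.6 CPM in WT livers at 12 weeks and 143 to 522 CPM at 34 weeks, and 0.202 to 0.350 and 0.0368 to 0.189 CPM in Lipa-/- livers, near or under the floor. In treated livers it had 0 to 25.5 CPM at 12 weeks and 4.76 to 40.6 CPM at 34 weeks. The WT livers of 34 weeks were also those with the highest Vnn1, Acot2, Acot3 and Acot4, and the part of the PPARalpha list in those values was not tested.

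**Figure D5:**
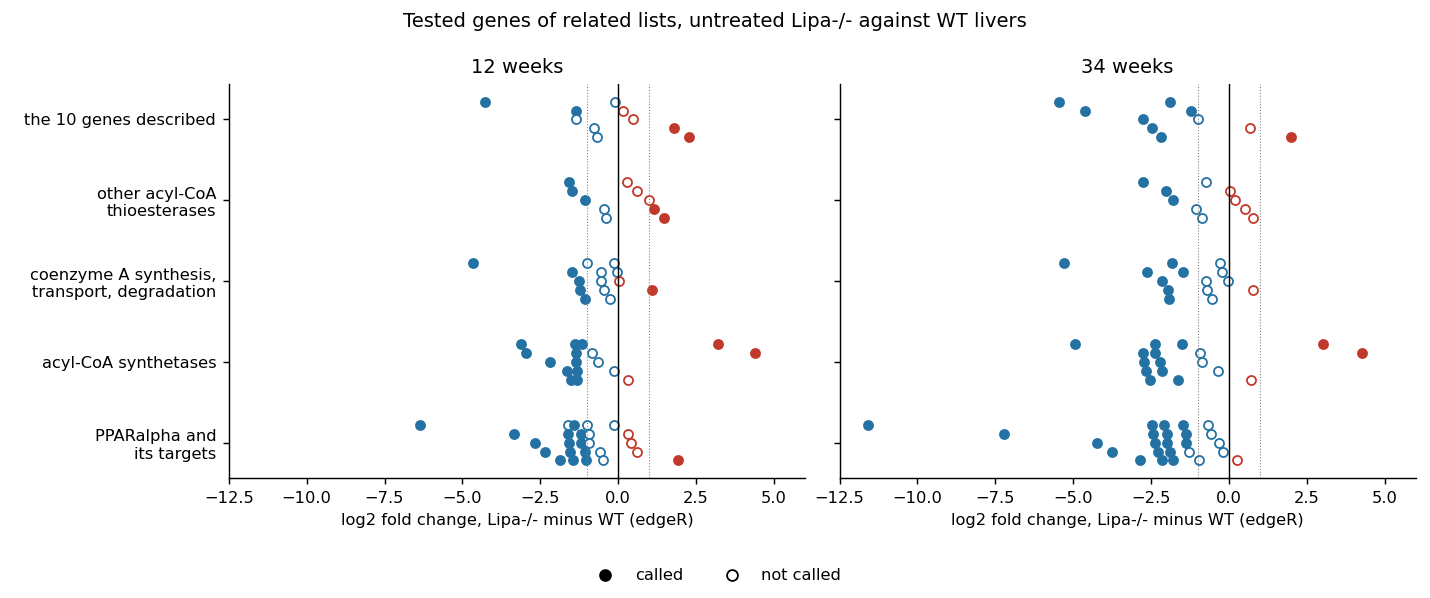
Log2 fold changes in Lipa-/- against WT livers at 12 weeks (left) and 34 weeks (right) of the 10 genes described and of each tested gene of 4 related lists, red above 0 and blue below 0, with filled points for genes called. Most of the acyl-CoA synthetases (11 of 17) and of the PPARalpha list at 34 weeks (18 of 25) were called lower.

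The 1000 bases before and 200 after the start of each canonical transcript were searched on both strands for the direct repeat bound by PPARalpha with RXR, as 2 half-sites AGGTCA in the same orientation with 1 base between them, and again with any base in place of the T of each half-site. Every match of the strict form is also a match of the relaxed form. The strict form occurs in 0.142% and the relaxed form in 1.714% of the windows of 21757 protein-coding genes, and 0 of the 10 genes hold either. This says only that these letters are not in this window.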

How the data were processed

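RNA sequencing of 18 livers was described with 3 mice in each of 6 groups taken from the sample labels. The authors sequenced polyA RNA as paired reads of 150 bases, quantified it with Salmon against GRCm39 transcripts and summarised it per gene with tximport. The deposited files hold estimated counts, TPM values (scaled by the authors for transcript length and library) and mean transcript lengths. Per the submitters' processing notes, R 4.3.0 and DESeq2 1.40.1 were used. A deposited table of the authors' own fold changes and p-values was not used.

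Estimated counts were rounded to whole numbers, genes with more than 100 reads in total were kept, and 1 mean per group was fitted over all 18 livers with edgeR 4.0.16 (R 4.3.3), TMM factors, the quasi-likelihood test and Benjamini-Hochberg adjustment over all 14533 genes. Calls used the study's thresholds. The prior count of log2 CPM was 2. Total reads per liver were 17527848 to 25833134, and the sources do not say more of the replicates than that they are separate mice. The scripts were tested on simulated data.

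The 10 genes and all lists were chosen with earlier results of these data known. Beyond the 10 genes, the text names the called gene with the largest change in each direction per related list in Lipa-/- against WT livers, any other thioesterase, and the 2 genes with the most similar pattern. Slc27a1 was named as well, as the other acyl-CoA synthetase called higher. The comparisons of 34 with 12 weeks within a kind of mouse were added after the values were seen.

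Alternatives were other scalings, length offsets, filters and thresholds, the groups compared alone, DESeq2 1.42.0, limma 3.58.1 on log2(TPM + 0.1), each mouse left out, Acot1 and Acot2 summed, and the mouse number as a block. Mouse numbers recur at both time points in different animals, and the deviations of equally numbered mice correlated with -0.253 to 0.460, so the numbers were not taken as pairs.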

Additional observations from a re-analysis of the deposited data

Results flagged for a closer look

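In 4 of the 10 genes, the difference between treated and WT livers itself differed between 34 and 12 weeks in the interaction test of edgeR. All 4 were called lower and 0 genes higher, against 9.83% and 8.58% of all tested genes. The log2 estimates were -1.87 for Acot2 (SE 0.450, edgeR adjusted p = 0.0241), -1.33 for Acot8 (SE 0.346, edgeR adjusted p = 0.0260), -2.26 for Acot13 (SE 0.506, edgeR adjusted p = 0.0238) and -1.13 for Vnn3 (SE 0.388, edgeR adjusted p = 0.0497). The estimates against WT livers were positive at 12 weeks and negative at 34 weeks for Acot8, Acot13 and Vnn3 (-0.22 at 12 weeks for Vnn3 on TPM values), and Acot2 was close to WT at 12 weeks (-0.09) and below it at 34 weeks (-1.96). Without treated mouse 9 of 34 weeks the 4 estimates were -1.98, -1.15, -2 and -1.02, and 0 genes were called, as without WT mouse 1 or 3 of 12 weeks. Vnn3 was past the threshold in 1 of the 12 fits that left out a mouse, with estimates from -1.23 to -0.92, and missed it with upper quartile scaling (-1.05), total counts (-0.62), length offsets (-1.07), no filter (-1.10), filterByExpr (-1.13) and on TPM values (-0.33). With total counts Acot2 (-1.42) and Acot8 (-0.80) also missed it, as they did on TPM values (-1.04 and -0.49), which left Acot13 as the gene called in each. In a fit of the groups compared alone, and with the replicate block, 0 of the 4 genes were called. The summed reads of Acot1 and Acot2 had an estimate of -0.51 (SE 0.674, edgeR adjusted p = 0.602) and were not called. Time point and study code cannot be told apart.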

How the results depend on the processing

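Of 1546 values of the 10 genes under alternatives, 51 changed sign, and 0 of these were of a gene called in that comparison. For time within a kind of mouse, these values cover Acot2, Acot3, Acot4, Acot8, Acot13 and Vnn1 only. With each mouse left out, the number of genes called ranged from 4 to 4 (Lipa-/- against WT, 12 weeks), 8 to 9 (34 weeks), 1 to 3 (treated against WT, 12 weeks), 0 to 3 (34 weeks), 5 to 6 (treated against untreated, 12 weeks) and 4 to 7 (34 weeks, 4 without Lipa-/- mouse 5). It ranged from 0 to 1 and 0 to 4 for the interactions of Lipa-/- and treated livers, and from 1 to 3, 0 to 0 and 2 to 4 for time in WT, Lipa-/- and treated livers. In Lipa-/- against WT livers, 3 of 4 calls at 12 weeks (Acot1, Acot9, Vnn3) and 7 of 8 at 34 weeks (all but Acot2) held in all 16 settings. In treated against WT livers 0 of 2 and 0 of 3 did, and against untreated livers 1 of 5 (Vnn3) and 3 of 7 (Acot1, Acot9, Acot12).

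At an adjusted p under 0.01, 1 gene was called in treated against WT livers at 12 weeks, 0 at 34 weeks, 0 in the treated interaction and 1 for time in WT. With total counts, which moved the median of all genes by -0.87 to 0.63, 1 was called in treated against WT livers at 34 weeks and 1 in the treated interaction. A fit of the groups compared alone called 0 in each of these and 0 for time in WT, and limma called 0 and 1. The Lipa-/- interaction had 1 call without a filter and 5 with DESeq2. With the replicate block, which left 3 residual degrees of freedom in place of 12, 0 genes were called in either interaction or for time in WT or treated livers. The causes of these changes were not tested, beside the fewer samples or degrees of freedom.

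Sign changes with total counts were Vnn1 (0.33) in Lipa-/- against WT livers at 12 weeks, Acot12 (-0.28) in treated against WT livers at 12 weeks, Acot3 (-0.61) and Acot4 (-0.73) in treated against untreated livers at 12 weeks, Acot13 (-0.25) and Vnn1 (-0.085) at 34 weeks, Acot1 (0.24) in the treated interaction and Acot2 (0.49) for time in treated livers. With limma they were, in the same order, Vnn1 (0.57), Acot12 (-0.29) and Vnn3 (-0.22), Acot3 (-1.02) and Acot4 (-0.99), Acot13 (-0.32) and Vnn1 (-0.063), Acot1 (0.49) and Acot4 (0.035), and Acot2 (0.86), with Acot9 (0.10) in the Lipa-/- interaction and Acot4 (0.025) for time in Lipa-/- livers. Acot3 in treated against untreated livers at 12 weeks was -0.12 with length offsets and -0.14 with DESeq2. With the block, Acot1 (0.32) and Acot9 (0.66) changed sign in the Lipa-/- interaction. The sum of Acot1 and Acot2 had the opposite sign to Acot2 in Lipa-/- against WT livers at 12 weeks (-2.12) and in treated against untreated livers (1.29 and 1.44). In WT livers at 12 weeks Acot1 averaged 26.2 CPM and Acot2 3.99 CPM, so the sum mostly follows Acot1 and cannot test Acot2.

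With a mouse left out, values that changed sign ranged from -0.43 to 0.67 (Vnn1) in Lipa-/- against WT livers at 12 weeks, -0.28 to 0.19 (Acot2) and -0.71 to 0.37 (Acot9) in treated against WT livers at 12 and 34 weeks, and -0.16 to 0.63 (Acot3) and -0.14 to 0.44 (Acot4) in treated against untreated livers at 12 weeks. They ranged from -0.64 to 0.035 (Acot1) and -0.59 to 0.16 (Acot9) in the Lipa-/- interaction and from -0.98 to 0.42 (Acot1) in the treated one. Among the genes followed for time, they ranged from -0.031 to 0.37 (Acot8) and -0.11 to 0.63 (Acot13) in WT livers, -0.18 to 0.27 in Lipa-/- livers and -0.28 to 0.067 in treated livers (Acot2).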
